A study of Homo sapiens with 6 samples.

Results

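The hnRNP and RBM genes encode RNA-binding proteins that act beside the serine/arginine-rich proteins on the same pre-mRNAs. They were taken as the protein-coding genes of the deposited count table whose symbol begins with HNRNP or with RBM and a number, without RBM8A and without genes of the Y chromosome. The rule gave 64 of 58735 genes, 27 HNRNP genes and 37 RBM genes, and it used no measured value. RNA was sequenced from LoVo, a human cell line of colorectal cancer, after transfection. There were 3 libraries of cells given a negative control siRNA (si-NC) and 3 of cells given an siRNA that targets SRSF11 (si-SRSF11). An siRNA is a short RNA duplex that directs the degradation of a matching mRNA. By the labels the groups differed in the siRNA alone, and both had been transfected. The paper lists 3 siRNAs against SRSF11 without saying which was sequenced, and an untransfected group was not analysed here. One line of cells stands behind all 6 libraries, and the labels do not say whether the libraries came from separate cultures, so the p-values measure the spread between these libraries.

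Heterogeneous nuclear ribonucleoproteins coat nascent transcripts, and many of them silence exons or splice sites that serine/arginine-rich proteins favour. RBM is a naming convention for proteins with an RNA-binding motif rather than a single family. Its members include subunits of the spliceosome, regulators of alternative splicing, factors of m6A methylation and nuclear RNA decay, and nucleolar proteins of ribosome assembly.

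The counts added up to between 14369525 and 15514404 per si-NC library and between 15688702 and 16685719 per si-SRSF11 library. SRSF11 itself, read first as a check of the labels, had 1271, 1281 and 1363 counts in the si-NC libraries and 789, 789 and 807 in the si-SRSF11 libraries (log2 fold change -0.81, adjusted p = 6.1e-10 in edgeR). In the paper's figure of sequencing tracks the library names are bracketed with the opposite conditions, and the deposited labels were used here. All 10 epithelial markers on the list were tested, with a summed level of 5690 to 6050 CPM (counts relative to library size, scaled by TMM factors) in si-NC and 5780 to 6180 in si-SRSF11, and 2 of them rose. KRT8 alone had 3050 to 3450 CPM. KRT20 and CEACAM5 were low, at 6 to 20 and 10 to 20 counts per library, and CEACAM6 had 31 to 70. The 6 fibroblast markers summed to 19.7 to 23.2 CPM in si-NC and 24.7 to 29 in si-SRSF11, with 1 rise among 2 tested and the defining markers DCN and LUM at 0 in every library. The 6 leukocyte and endothelial markers summed to 4.56 to 5.07 and 4.78 to 5.72 CPM, with PTPRC at 0. The part of these markers in the results was not tested. Mitochondrial genes took 7.003% to 7.251% of the counts in si-NC and 8.286% to 8.510% in si-SRSF11, and the part of this shift in the results was not tested.

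Of the 64 genes, 54 had at least 10 counts in at least 3 libraries and were tested, 22 of them hnRNP and 32 RBM. A gene was called at an adjusted p under 0.05, from the quasi-likelihood test of edgeR with Benjamini-Hochberg adjustment across the 15801 genes tested. By this rule 10 of the 54 rose and 5 fell in si-SRSF11, which is 27.8%, where 24.6% of all tested genes were called. The rises made up 18.5% of the members beside 13.2% of all tested genes, and the falls 9.26% beside 11.4%. These shares lie near the background, and none of them was tested against it. No member passed an absolute log2 fold change over 1 together with the adjusted p, either in edgeR or in DESeq2, beside 1.09% of all tested genes, although 21 members had an unadjusted p under 0.05 in edgeR. The members' changes were small, with a median absolute log2 fold change of 0.09 against 0.17 over all tested genes and 0.15 over the protein-coding ones. All tested genes had a median level of 21.3 CPM, below that of either family, and the part of level in this was not tested. The median signed log2 fold change was 0.05 over the members, 0.0015 over all tested genes and 0.0142 over the protein-coding ones. The CPM of the 3 libraries of one condition lay wholly above or below those of the other in 21 of 54 members, 15 above and 6 below, beside 38.8% of all tested genes.

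The 22 hnRNP genes held 7 rises and 3 falls (45.5% called, median log2 fold change 0.06), and the 32 RBM genes held 3 rises and 2 falls (15.6% called, median 0.04). The difference between the families was not tested. The families also differed in level. The hnRNP genes had a median level of 226 CPM and a median standard error of 0.049 on the log2 scale, while the RBM genes stood at a median of 56.4 CPM with a standard error of 0.062. Among all tested genes, 45.3% were called at a mean level of at least 100 CPM and 21.3% below it. At or above this level 6 of 16 hnRNP genes (37.5%) and 1 of 5 RBM genes (20%) were called, and below it 4 of 6 hnRNP genes (66.7%) and 4 of 27 RBM genes (14.8%). These shares rest on as few as 5 and 6 genes. HNRNPH3 and HNRNPLL, called and counted below this level, each had a mean of 101 CPM in si-NC. The part of level in the difference was not tested. Fewer cells of a type and less RNA per cell cannot be told apart in RNA from whole cultures.

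**Figure D1:**
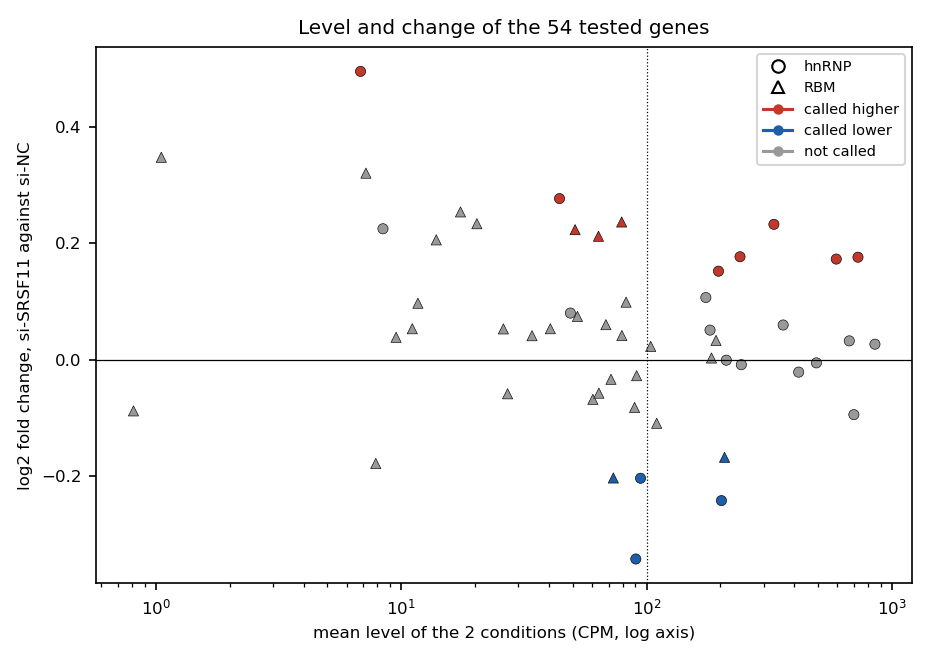
Mean CPM of the 2 conditions (x axis, log scale) against the log2 fold change of si-SRSF11 over si-NC (y axis) for the 54 tested genes, with circles for hnRNP and triangles for RBM, red for called higher, blue for called lower, grey for not called, and a dotted line at 100 CPM. Most hnRNP genes, 16 of 22, lie right of the dotted line and most RBM genes, 27 of 32, lie left of it.

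**Figure D2:**
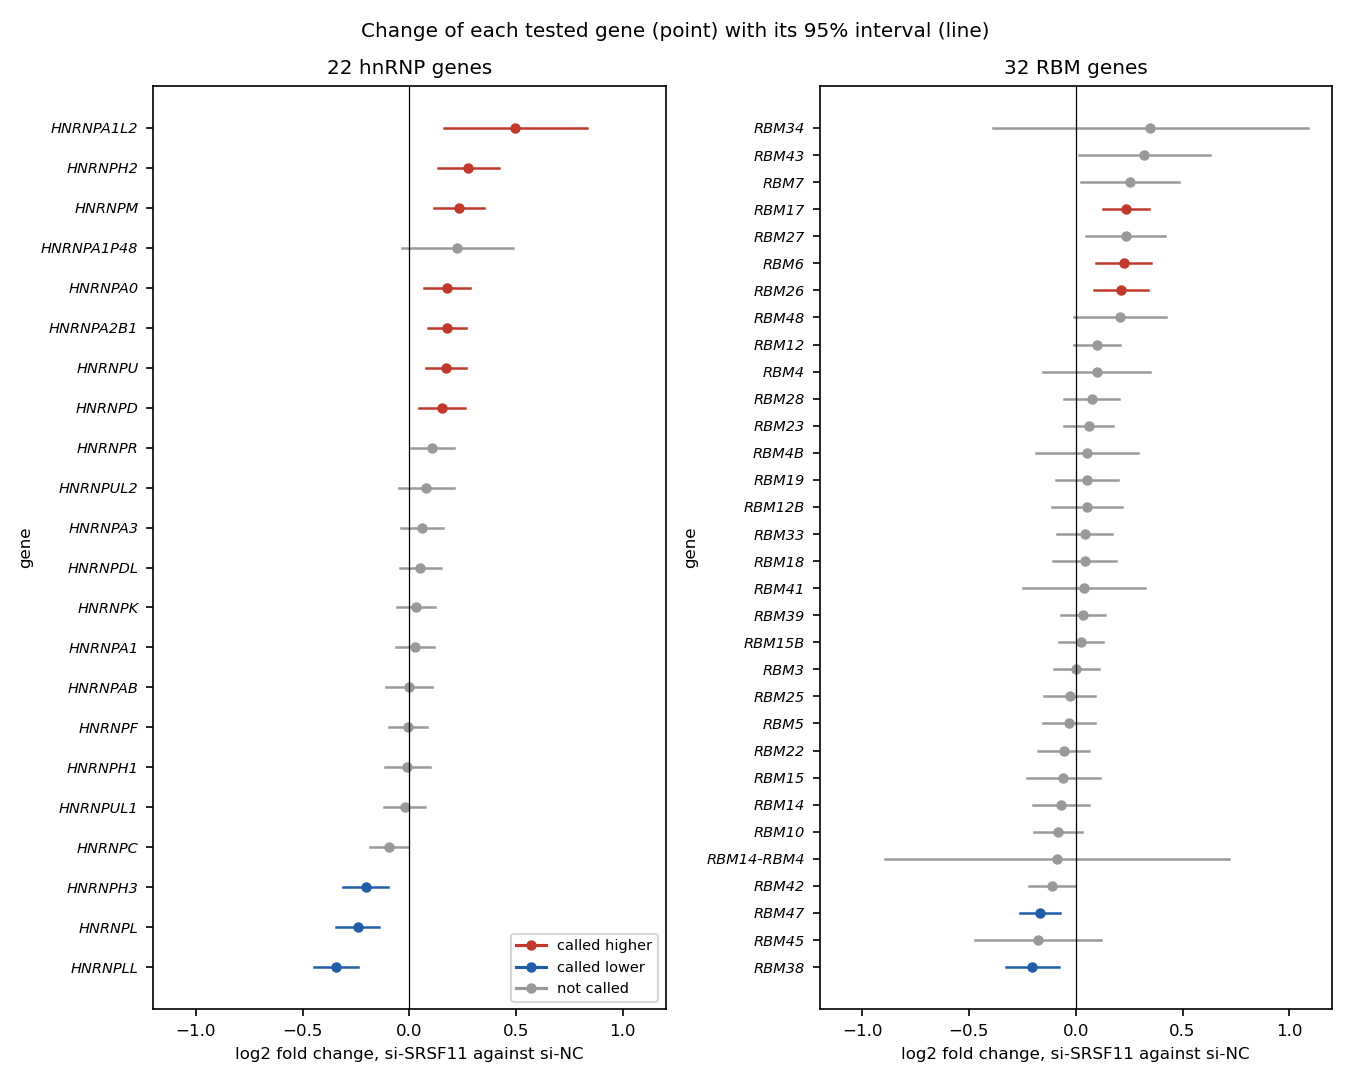
Log2 fold change of each tested gene (point) with its 95% interval from the edgeR fit (line), 22 hnRNP genes on the left and 32 RBM genes on the right, in order of the change, with the called genes in red and blue. The called changes run from -0.34 (HNRNPLL) to 0.50 (HNRNPA1L2), and the widest intervals belong to the low genes RBM34 and RBM14-RBM4.

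Levels were also divided by the length of the gene model, the union of all its annotated exons. The resulting RPKM are reads scaled by this length and by library size. The union exceeds the transcript with the longest coding sequence by unlike amounts. It was 7309 against 1784 bases in HNRNPC and 3253 against 2755 in HNRNPF, so the order of genes depends on the annotation too. By this measure HNRNPA1 ranked first with 166 ± 3.01 RPKM in si-NC and 169 ± 3.79 in si-SRSF11 (SD, n = 3). HNRNPF followed with 152 ± 1.6 and 151 ± 1.87 RPKM, and HNRNPK with 130 ± 2.53 and 133 ± 1.42. HNRNPAB at 98.7 ± 4.26 and HNRNPC at 98.9 ± 1.40 RPKM in si-NC lay within each other's spread. HNRNPA2B1 came next at 73.7 ± 0.572 RPKM in si-NC and 83.3 ± 2.83 in si-SRSF11. The highest RBM genes by this measure were RBM42, with 51.9 ± 2.62 RPKM in si-NC, and RBM3, with 49.3 ± 1.74, and their spreads met. By summed level the 27 hnRNP genes reached 6779 ± 17.4 CPM in si-NC and 6999 ± 179 in si-SRSF11 (SD, n = 3), and the 37 RBM genes at 1951 ± 16.4 and 1957 ± 11.9. The 2 sums of the hnRNP genes therefore differed by little more than the spread of the si-SRSF11 libraries, and those of the RBM genes by less than the spread.

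The hnRNP A genes HNRNPA1L2 and HNRNPA1P48 are near-identical copies of HNRNPA1, which limits how reads can be assigned to each of them. HNRNPA1 lies on chromosome 12 (54280193 to 54287088, plus strand, GRCh38), HNRNPA1L2 on chromosome 13 (52642425 to 52643796, plus strand) and HNRNPA1P48 on chromosome 16 (51553436 to 51647132, plus strand). Over the compared coding bases of GENCODE 29, HNRNPA1L2 differed from HNRNPA1 at 15 of 960 (98.4% identity) and HNRNPA1P48 at 6 of 825 (99.3%). Of the 100-nt windows of the HNRNPA1 transcript, 56.6% occur in 10 other genes, and how reads with several matches were counted is not given in the sources used here. The levels of the 3 genes are therefore uncertain.

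Of the 8 genes of the hnRNP A/B and D group, 4 rose in si-SRSF11 and 4 did not pass the test in edgeR, while 2 rose in DESeq2. Over all tested genes 24.6% were called, and 45.3% of those of at least 100 CPM. The counts of this and the following groups were not tested against these shares. The group's summed level was 2689 ± 30.9 CPM in si-NC and 2867 ± 76.3 in si-SRSF11 (SD, n = 3). HNRNPA2B1, a silencer of exons that also takes part in RNA transport and in reading m6A, had 677, 686 and 686 CPM in the si-NC libraries and 752, 802 and 762 CPM in the si-SRSF11 libraries, in the order of replicates 1 to 3 that is kept below. The highest si-NC library lay under the lowest si-SRSF11 library, and HNRNPA2B1 rose by 13.0% (log2 fold change 0.18, standard error 0.043, adjusted p = 0.0045). Its exons share 3.97% of their bases with CBX3 on the opposite strand, whose own log2 fold change was 0.16 (adjusted p = 0.019), and the library kit does not mark strand. HNRNPA0, a relative that binds AU-rich elements, had 229, 217 and 233 CPM in si-NC and 238, 260 and 268 CPM in si-SRSF11. The groups did not overlap, though the first si-SRSF11 library stood just above the highest control (log2 fold change 0.18, standard error 0.052, adjusted p = 0.014). The call was lost without si-NC replicate 2 and without si-SRSF11 replicate 2. HNRNPD, also known as AUF1 and linked to the decay of AU-rich mRNAs, had 191, 185 and 182 CPM in si-NC and 190, 218 and 212 CPM in si-SRSF11. The first si-SRSF11 library lay within the si-NC range, and the call (log2 fold change 0.15, standard error 0.053, adjusted p = 0.038) was lost under 7 of 13 alternatives, DESeq2 and scaling by library size among them.

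HNRNPA1L2, the intronless copy described above, had 5.59, 4.80 and 6.61 CPM in si-NC and 7.03, 7.26 and 9.69 CPM in si-SRSF11, from 73 to 158 counts per library. The change of 0.50 on the log2 scale (standard error 0.16, adjusted p = 0.028) was the largest among the called members in size, yet it was lost under 4 of 13 alternatives, DESeq2 included. The third si-SRSF11 library stood apart at the top. HNRNPA1 itself, the abundant silencer whose sequence it shares, had 830, 843 and 861 CPM in si-NC and 860, 842 and 880 CPM in si-SRSF11. Its groups overlapped, with a log2 fold change of 0.03 (95% interval -0.06 to 0.11, adjusted p = 0.69). HNRNPA1P48 had 7.79, 7.57 and 7.96 CPM in si-NC and 9.27, 8.43 and 9.57 CPM in si-SRSF11, without overlap, but did not pass (log2 fold change 0.23, adjusted p = 0.20). A further 74 genes of the table are named as HNRNPA1 pseudogenes. Together they held 146 to 171 counts per library, and 0 of the 5 that could be tested were called by edgeR or DESeq2 or had an unadjusted p under 0.05. The remaining genes of the group did not pass the test either. HNRNPA3 had a log2 fold change of 0.06, HNRNPDL of 0.05 and HNRNPAB of 0.00.

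HNRNPC, which binds uridine tracts and keeps cryptic exons out of mRNAs, was the only one of the 5 C genes that could be tested. It had 726, 711 and 731 CPM in si-NC and 666, 667 and 697 CPM in si-SRSF11. All 3 si-SRSF11 libraries lay below all 3 controls, while the change of -0.09 on the log2 scale did not pass in edgeR, with a standard error of 0.043 and an adjusted p of 0.12. HNRNPC was called with scaling by library size and without si-SRSF11 replicate 3. The C-like genes HNRNPCL1, HNRNPCL2, HNRNPCL3 and HNRNPCL4 had 0 counts in all 6 libraries. A count of 0 allows up to 3 counts, or 0.180 to 0.209 CPM depending on the library, a limit for counting error only.

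Among the 4 genes of the F and H proteins, which bind runs of guanines, 1 rose, 1 fell and 2 did not pass the test. HNRNPH2 had 42.6, 37.6 and 39.6 CPM in si-NC and 44.8, 49.0 and 51.3 CPM in si-SRSF11. It rose by 21.2% (log2 fold change 0.28, standard error 0.069, adjusted p = 0.0048), with each si-SRSF11 library above each control. HNRNPH3 had 100, 102 and 102 CPM in si-NC and 83.4, 91.1 and 89.8 CPM in si-SRSF11, and it fell by 13.2% (log2 fold change -0.20, standard error 0.051, adjusted p = 0.0051). The 3 controls lay close together and above every si-SRSF11 library. HNRNPH1, the most abundant H gene, had 264, 233 and 237 CPM in si-NC and 240, 245 and 245 CPM in si-SRSF11. HNRNPF had 493, 488 and 499 CPM in si-NC and 485, 493 and 497 CPM in si-SRSF11. Both genes overlapped between the groups, with log2 fold changes of -0.01 each and 95% intervals of -0.11 to 0.10 for HNRNPH1 and -0.10 to 0.08 for HNRNPF. HNRNPH2 shares 16.3% of its exon bases with the read-through gene RPL36A-HNRNPH2, which had 0 to 2 counts per library.

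Counts of related genes were also set against each other within each library, which needs no scaling between libraries. The pairs were chosen with their values known, so the ratios are a description with no test. HNRNPH2 stood at 0.424, 0.369 and 0.389 of the count of HNRNPH3 in si-NC and at 0.537, 0.538 and 0.572 in si-SRSF11, so each si-SRSF11 library lay above each control. HNRNPH1 against HNRNPH3 went from 2.41 ± 0.188 to 2.76 ± 0.101 (SD, n = 3), HNRNPA2B1 against HNRNPA1 from 0.809 ± 0.00991 to 0.897 ± 0.0477, and HNRNPU against HNRNPUL1 from 1.33 ± 0.0103 to 1.52 ± 0.0521. In these pairs and in RBM6 against RBM5, from 0.653 ± 0.0489 to 0.779 ± 0.0467, the libraries of the conditions did not overlap. They overlapped in HNRNPLL against HNRNPL, HNRNPD against HNRNPDL and RBM26 against RBM27.

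Of the 5 genes of the K, L, M and R group, HNRNPLL and HNRNPL fell, HNRNPM rose and 2 did not pass the test. HNRNPLL, a paralogue of HNRNPL best known as a silencer of variable exons of CD45 in lymphocytes, had 104, 99.4 and 101 CPM in si-NC and 80.1, 80.2 and 79.5 CPM in si-SRSF11. The 3 si-SRSF11 libraries lay almost on one value, well below the controls. HNRNPLL fell by 21.1% (log2 fold change -0.34, standard error 0.049, adjusted p = 2.3e-05), the smallest adjusted p among the members. HNRNPL, which binds CA-rich stretches, had 214, 212 and 229 CPM in si-NC and 180, 192 and 182 CPM in si-SRSF11. It fell by 15.4% (log2 fold change -0.24, standard error 0.049, adjusted p = 8.8e-04), with no overlap between the groups. HNRNPM, a regulator of splicing in epithelial and mesenchymal cells, had 308, 306 and 298 CPM in si-NC and 320, 368 and 383 CPM in si-SRSF11. It rose by 17.5% (log2 fold change 0.23, standard error 0.055, adjusted p = 0.0035), although the first si-SRSF11 library stood nearer to the controls than to the other si-SRSF11 libraries. HNRNPR, a relative of SYNCRIP, had 169, 168 and 167 CPM in si-NC and 171, 189 and 183 CPM in si-SRSF11, without overlap. It did not pass at an adjusted p of 0.12 (log2 fold change 0.11), and it was called without si-SRSF11 replicate 1. The poly(C)-binding HNRNPK had a log2 fold change of 0.03 (95% interval -0.06 to 0.12). HNRNPL shares 24.9% of its 100-nt windows with other genes, chiefly AC008982.1, which had 0 counts in every library, while HNRNPLL shares no window and no exon base.

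In the U group HNRNPU, a nuclear scaffold protein that binds chromatin as well as RNA, had 557, 570 and 548 CPM in si-NC and 605, 653 and 630 CPM in si-SRSF11. It rose by 12.7% (log2 fold change 0.17, standard error 0.045, adjusted p = 0.0068) and its groups did not overlap. COX20 on the opposite strand shares 15.6% of the exon bases of HNRNPU, at 28 to 38 counts per library. The related HNRNPUL1 had 417, 427 and 416 CPM in si-NC and 407, 436 and 398 CPM in si-SRSF11, and HNRNPUL2 had 48.7, 47.7 and 46.3 CPM in si-NC and 47.4, 53.3 and 50 CPM in si-SRSF11. Both overlapped and did not pass, with log2 fold changes of -0.02 and 0.08. The read-through gene HNRNPUL2-BSCL2 had 3 counts in si-SRSF11 replicate 2 and none in the other libraries.

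**Figure D3:**
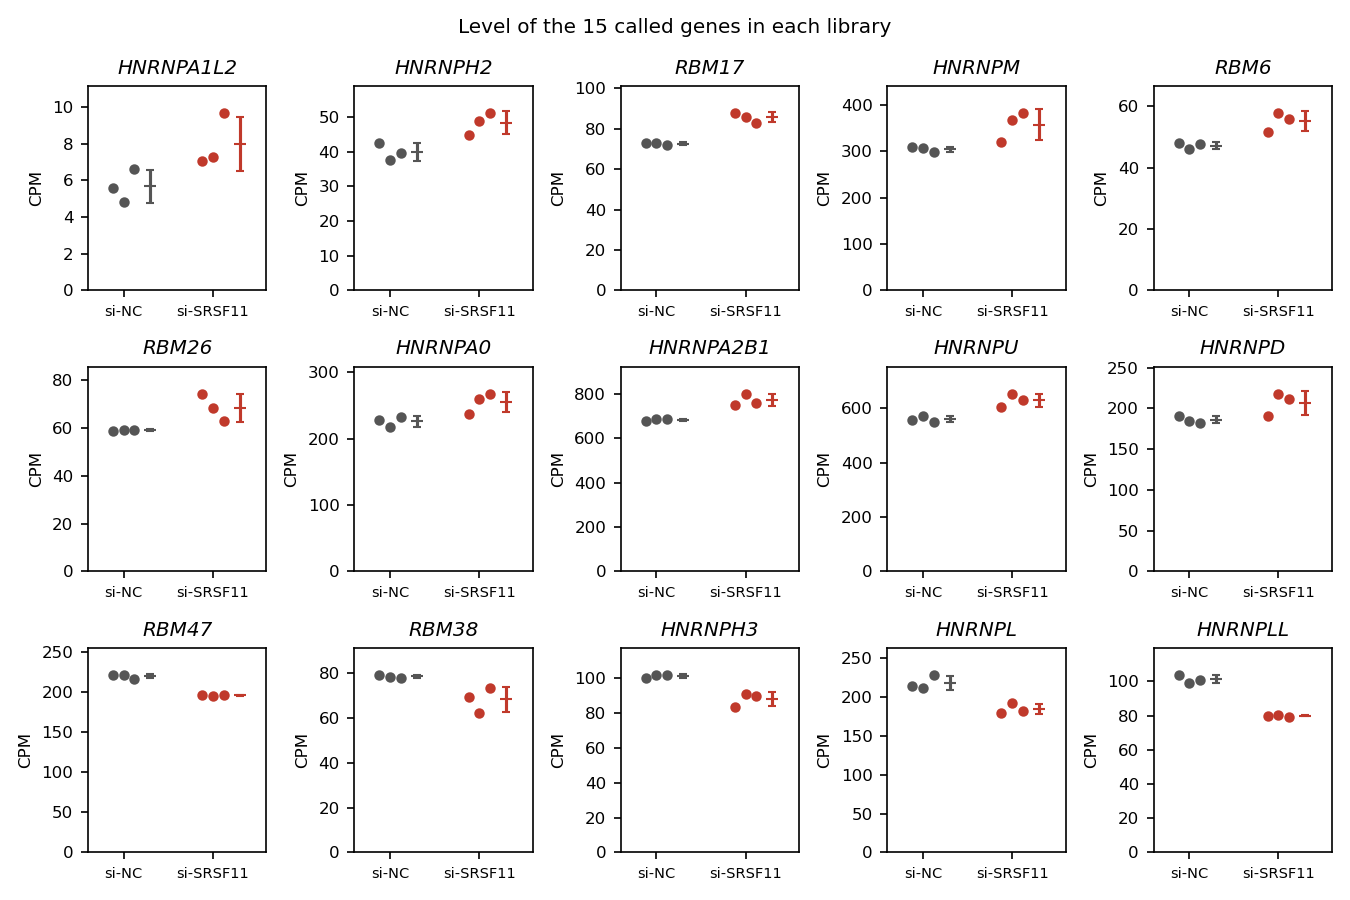
CPM of each of the 15 called genes (y axes, from 0) in the 3 si-NC libraries (grey) and the 3 si-SRSF11 libraries (red), with the mean and its SD beside the points. The conditions overlap for HNRNPD, where si-SRSF11 replicate 1 at 190 CPM lies below the highest control at 191 CPM.

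Among the 11 RBM proteins of the spliceosome, RBM17 and RBM6 rose and the other 9 did not pass the test. RBM17, also called SPF45, takes part in recognition of the 3′ splice site. It had 73.2, 72.8 and 72.1 CPM in si-NC and 88.0, 86.0 and 83.0 CPM in si-SRSF11, a rise of 17.8% (log2 fold change 0.24, standard error 0.052, adjusted p = 0.0017). The groups were far apart relative to their spread, and RBM17 shares no exon base or window with another gene. RBM6, which belongs with RBM5 and RBM10 to a group of splicing regulators of similar domain structure, had 48, 46 and 47.6 CPM in si-NC and 51.5, 57.9 and 55.9 CPM in si-SRSF11. It rose by 16.8% (log2 fold change 0.22, standard error 0.062, adjusted p = 0.010), and the call was lost without si-NC replicate 2 and without si-SRSF11 replicate 2. RBM5, its neighbour on chromosome 3 with which it shares 6.25% of its exon bases, had a log2 fold change of -0.03, and RBM10 of -0.08. RBM42, linked to the tri-snRNP, had 112, 110 and 121 CPM in si-NC and 103, 104 and 111 CPM in si-SRSF11. Its groups overlapped (log2 fold change -0.11, adjusted p = 0.13), and it was called with scaling by library size and without si-SRSF11 replicate 3. RBM48, of the minor spliceosome, had 12.7, 13.6 and 12.5 CPM in si-NC and 15.3, 15.8 and 13.6 CPM in si-SRSF11 (log2 fold change 0.21, adjusted p = 0.16). The abundant RBM39, a cofactor that resembles U2AF, had a log2 fold change of 0.03 (95% interval -0.07 to 0.14). Log2 fold changes were also small for its relative RBM23 (0.06), for RBM22 of the catalytic spliceosome (-0.06), for the U1-associated RBM25 (-0.03) and for RBM41 (0.04).

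Of the 10 RBM regulators of alternative splicing, 7 were tested and RBM47 and RBM38 fell. RBM47, known in epithelial cells as a splicing regulator and a cofactor of APOBEC1, had 221, 222 and 217 CPM in si-NC and 197, 195 and 196 CPM in si-SRSF11. The libraries of each condition agreed closely and RBM47 fell by 11% (log2 fold change -0.17, standard error 0.045, adjusted p = 0.0087). RBM38, a p53 target that binds mRNAs and affects their stability, had 79.2, 78.2 and 77.9 CPM in si-NC and 69.1, 62.1 and 73.3 CPM in si-SRSF11. It fell by 13.1% (log2 fold change -0.20, standard error 0.059, adjusted p = 0.015), with a wide spread in si-SRSF11, and the call was lost without si-NC replicate 1 and without si-SRSF11 replicate 2. The cold-inducible RBM3 stood at 184, 177 and 190 CPM in si-NC and at 179, 178 and 195 CPM in si-SRSF11 (log2 fold change 0.00, 95% interval -0.10 to 0.11). RBM14, a paraspeckle protein, had 62.8, 61.8 and 61.1 CPM in si-NC and 61.8, 52.9 and 62.5 CPM in si-SRSF11, with a log2 fold change of -0.07. RBM4 and RBM4B, neighbours on chromosome 11, did not pass either. RBM4 had 10.4, 12.5 and 10.9 CPM in si-NC and 11, 13.8 and 11.3 CPM in si-SRSF11 (log2 fold change 0.10), and RBM4B had 155 to 201 counts per library (log2 fold change 0.05). The read-through gene RBM14-RBM4, which shares 78.7% of its exon bases, had 10 to 17 counts per library. The muscle regulator RBM24 had 0 counts in every library. RBM20, the regulator of titin splicing in heart, had 3 counts in all 6 libraries together, and RBM11 had 1.

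Of the 6 RBM proteins of nuclear RNA modification and decay, RBM26 rose and 5 did not pass the test. RBM26, linked to the decay of polyadenylated RNA in the nucleus, had 58.7, 59.1 and 59.4 CPM in si-NC and 74.4, 68.2 and 62.8 CPM in si-SRSF11, a rise of 15.9% (log2 fold change 0.21, standard error 0.062, adjusted p = 0.014). The si-SRSF11 libraries spread widely but stayed above the controls, and the call was lost without si-NC replicate 1 and without si-SRSF11 replicate 1. Its paralogue RBM27 had 20.0, 18.2 and 17.9 CPM in si-NC and 21.2, 21.2 and 23.4 CPM in si-SRSF11. RBM27 also showed no overlap but did not pass (log2 fold change 0.23, adjusted p = 0.061). RBM7, of the nuclear exosome targeting complex, had 14.8, 17.0 and 15.9 CPM in si-NC and 21.8, 15.8 and 19.4 CPM in si-SRSF11, with overlap and an adjusted p of 0.099, and it was called without si-SRSF11 replicate 2. RBM15, which guides the m6A methyltransferase to RNA, had 27.9, 30.4 and 25.0 CPM in si-NC and 25.4, 27.5 and 26.9 CPM in si-SRSF11. Its log2 fold change was -0.06, that of RBM15B 0.02 and that of RBM33 0.04.

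The RBM proteins of ribosome assembly had 0 calls among 3 tested genes in edgeR and in DESeq2, and 0 at an unadjusted p under 0.05. RBM28 had 48.1, 54.1 and 50.6 CPM in si-NC and 55.6, 54.1 and 51.3 CPM in si-SRSF11, and RBM19 had 35.9, 43.1 and 40.5 CPM in si-NC and 41.4, 40.9 and 41.8 CPM in si-SRSF11. RBM34 rested on few reads, with 14, 9 and 19 counts in si-NC and 17, 20 and 20 in si-SRSF11, and 51.5% of its exon bases also belong to other genes, so its log2 fold change of 0.35 had a 95% interval from -0.39 to 1.09. Of the 7 other RBM genes, 5 were tested, with 0 calls in edgeR and in DESeq2 and 1 gene at an unadjusted p under 0.05 in edgeR. That gene was RBM43, with 5.03, 7.30 and 6.80 CPM in si-NC and 8.06, 8.24 and 7.67 CPM in si-SRSF11 (log2 fold change 0.32, adjusted p = 0.12). RBM12 had 79.7, 80.4 and 79.1 CPM in si-NC and 90.2, 83.6 and 82.5 CPM in si-SRSF11, without overlap (log2 fold change 0.10, adjusted p = 0.18). RBM45 had 9.38, 8.49 and 7.25 CPM in si-NC and 7.8, 6.34 and 8.03 CPM in si-SRSF11 (log2 fold change -0.18). RBM12B had 27, 26.1 and 23.8 CPM in si-NC and 26.5, 27.4 and 25.8 CPM in si-SRSF11 (log2 fold change 0.05). Both overlapped between the groups, and RBM18 had a log2 fold change of 0.04. RBM44 had 2 to 9 counts per library, and the germline gene RBM46 had 0 in each.

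Exon sharing can bear on these counts, because the kit does not mark strand and the strand setting of the counting is not given. Under 1% of exon bases and of windows were shared by 17 members, of which 14 were tested. In this subset 2 rose and 2 fell (28.6% called, beside 24.6% of all tested genes), with a median log2 fold change of 0.02. At least 1 transcript marked for nonsense-mediated decay was annotated for 13 of 22 hnRNP genes and 14 of 32 RBM genes, beside 42.9% of the 12770 tested protein-coding genes. HNRNPU has 9 such transcripts among 31, and RBM39 has 15 among 45. Counts per gene do not separate transcripts, so a shift between productive and decayed transcripts was not analysed here.

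Start sites were read for sequence that called members share. RefSeq promoters (GRCh38.p14) were found for 57 of 64 members, 48 of them tested, and the 150 bases before the start were searched on both strands for the CCAAT box, the GC box GGGCGG, the TATA box as TATAAA, the E-box core CACGTG and the ETS site CGGAAG, counting matches that overlap each other. CCAAT was found in 47.9% of the tested members' windows beside 27.0% of those of 10076 tested protein-coding genes and 24.4% of all 27305 promoters. Among the called members it lay in 3 of 10 windows of risers (30%) and in 3 of 5 of those that fell. CACGTG was found in 14.6% beside 6.49% and 4.68%. It lay in the windows of HNRNPD, HNRNPH2 and HNRNPM among the 10 risers and of HNRNPH3 among the 5 that fell, so both directions held it. A window before the RefSeq start can lie inside an exon of GENCODE. All 150 bases were exonic there for HNRNPM and HNRNPH3, as for HNRNPA2B1, RBM26 and RBM47, and 23 were for HNRNPD. GGGCGG was found in 56.2% of the members beside 60.8% and 36.7%, CGGAAG in 25.0% beside 22.2% and 13.0% and TATAAA in 4.17% beside 3.20% and 7.05%. These shares are a description of the windows. The 3 windows shown hold no annotated exon base, and matches are in capitals. They are HNRNPH2 (chrX:101408072-101408221, plus strand), HNRNPL (chr19:38852348-38852497, minus strand) and RBM38 (chr20:57391246-57391395, plus strand).
HNRNPH2: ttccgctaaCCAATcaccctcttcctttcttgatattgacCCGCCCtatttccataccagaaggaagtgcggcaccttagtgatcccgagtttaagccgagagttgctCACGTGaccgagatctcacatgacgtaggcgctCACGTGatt
HNRNPL: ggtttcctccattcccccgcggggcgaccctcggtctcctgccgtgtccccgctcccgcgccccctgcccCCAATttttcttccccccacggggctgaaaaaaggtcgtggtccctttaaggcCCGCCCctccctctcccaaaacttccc
RBM38: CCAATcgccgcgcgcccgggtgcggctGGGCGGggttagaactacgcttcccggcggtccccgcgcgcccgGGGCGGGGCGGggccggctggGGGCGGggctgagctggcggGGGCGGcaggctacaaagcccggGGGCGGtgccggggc
The HNRNPH2 window holds CACGTG starting 42 and 9 bases before the start, beside 1 CCAAT and 1 GGGCGG. The HNRNPL window holds 1 CCAAT and 1 GGGCGG. The RBM38 window is rich in GGGCGG, with 6 matches.

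Splicing regulators that carry neither name were read from a list of 42 symbols, chosen by function. The list gave 43 genes in the table, of which 38 were tested, 10 rose and 7 fell (44.7% called), with a median log2 fold change of -0.03. Over all tested genes 24.6% were called, 13.2% higher and 11.4% lower, and among those of at least 100 CPM 45.3%. The 7 falls came to 2 when any 1 control library was left out, to 4 without si-SRSF11 replicate 1 and to 4 in DESeq2. The 8 genes with the smallest adjusted p were 7 that rose and 1 that fell. SFPQ, a paraspeckle protein, had 197, 197 and 197 CPM in si-NC and 271, 261 and 277 CPM in si-SRSF11 (log2 fold change 0.45, standard error 0.046, adjusted p = 2.3e-07). TAF15, an RNA-binding protein, rose from 163 to 228 CPM (log2 fold change 0.48, adjusted p = 3.9e-07). RBMX, the hnRNP G protein, whose symbol has no number, had 131, 131 and 132 CPM in si-NC and 172, 166 and 168 CPM in si-SRSF11 (log2 fold change 0.36, adjusted p = 4.7e-06). TRA2B, a splicing activator, followed with a log2 fold change of 0.30 (adjusted p = 5.8e-05), and SYNCRIP, the hnRNP Q protein, with 0.26 (adjusted p = 1.9e-04). PTBP3, a paralogue of the polypyrimidine tract-binding protein, fell from 150 to 126 CPM (log2 fold change -0.25, adjusted p = 4.3e-04). MSI2 and FUBP3 rose with log2 fold changes of 0.23 and 0.18. Further genes of hnRNP proteins that carry another symbol, named after their values were seen, did not rise. PCBP1, hnRNP E1, fell from 140 to 127 CPM (log2 fold change -0.15, adjusted p = 0.043), while PCBP2, hnRNP E2, and PTBP1, hnRNP I, did not pass, with log2 fold changes of -0.06 and 0.00.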

How the data were processed

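Libraries of polyadenylated RNA, 6 in all, were read in pairs of 150 bases. Raw, unnormalized counts of 58735 genes were deposited by the authors in 1 table, each row naming a gene. The 6 count columns were matched to samples by the deposited descriptions. The build is hg38 per the labels, and the aligner, the counting program, its strand setting and the tool for differential expression are not given in the sources used here. Gene models were matched to GENCODE 29, which holds all 58735 identifiers, 58724 of them with the same start and end.

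The 15801 genes that reached 10 counts in 3 or more libraries were scaled by TMM and tested with edgeR 4.0.16 (R 4.3.3), glmQLFit and glmQLFTest, on condition alone, with Benjamini-Hochberg adjustment over all tested genes. The common dispersion was 0.00285, a biological coefficient of variation of 5.34%. CPM use TMM-scaled library sizes. RPKM divide by the gene length of the table, which is that of the union of exons. Alternatives were DESeq2 1.42.0, scaling by library size or upper quartile, no filter or a minimum of 50 counts, protein-coding genes only, a replicate block, and each library left out. In simulated data, 157 of 194 changed genes among 15801 tested genes were called, beside 6 unchanged genes. The share of genes called at changes as small as those of most members was not tested. Depth, at 14369525 to 16685719 counts, and 3 libraries per condition limit the precision. Limits from counts cover counting error only.

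The members and lists were chosen with earlier results of these data known. Values of all 6 libraries are given for up to 4 tested members with the smallest adjusted p in each role group. Other names are called members, members that share sequence or failed the filter, and the 8 other splicing regulators with the smallest adjusted p. HNRNPA1, HNRNPA3, HNRNPAB, HNRNPDL, HNRNPK, RBM3, RBM5, RBM10, RBM15B, RBM18, RBM22, RBM23, RBM25, RBM33, RBM39 and RBM41 were named outside this rule after their values were seen, to account for members that did not pass. Some items are not reported here.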

Additional observations from a re-analysis of the deposited data

How the results depend on the processing

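Of the 15 called members, 9 stayed called under all 13 alternatives: HNRNPA2B1, HNRNPH2, HNRNPH3, HNRNPL, HNRNPLL, HNRNPM, HNRNPU, RBM17 and RBM47. No called log2 fold change changed direction. With 1 library left out, 6 to 10 members rose, 4 to 8 of them hnRNP genes (6 and 4 without si-NC replicate 2), 1 to 3 RBM genes fell (1 without si-NC replicate 1 or si-SRSF11 replicate 2), 2 to 6 other splicing regulators fell (2 without any 1 control), and the median of the RBM genes ran from 0.0187, without si-SRSF11 replicate 2, to 0.0556. DESeq2 left 4 falls among the other splicing regulators. Scaling by library size lowered the median over all genes by 0.03, turned the split of calls from 2081 higher and 1805 lower to 1585 and 2289, and brought the median log2 fold change of the hnRNP genes to 0.0207 and the median log2 fold change of the RBM genes to 0.0073. The replicate block gave 10 rises and 5 falls among the members and 8 falls among the other splicing regulators, with 4036 genes called in all. Deviations of same-numbered libraries correlated at 0.015, 0.036 and 0.040, too weakly to pair them, although each library correlated best with its own number, a hint from the data and not from the design. Groups of 3 libraries are too small to test for outliers, and low genes such as RBM34 cannot show changes of this size.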
